A study of Rattus norvegicus with 18 samples.

Results

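MHC class II and its loading machinery were described in CD11b+ cells of the rat knee synovium through 10 genes: the classical chains RT1-Ba, RT1-Bb, RT1-Da and RT1-Db1, the invariant chain Cd74, the peptide editor chains RT1-DMa and RT1-DMb, their modulators RT1-DOa and RT1-DOb, and the transactivator Ciita. The genes were chosen by symbol, and all 10 were found once each among the 30643 genes measured at 4 weeks and at 12 weeks. RNA was sequenced from cells sorted with magnetic beads against CD11b (the product of Itgam), from wild-type male Sprague Dawley rats that were 12 weeks old at surgery. In OA rats the anterior cruciate ligament was cut and the medial meniscus was destabilized, and sham rats had a sham operation. There were 5 OA and 5 sham libraries at 4 weeks, each from synovium pooled over 4 rats, and 4 OA and 4 sham libraries at 12 weeks, each pooled over 3 rats. The pool is therefore the replicate, and single animals were not resolved. Levels are given as normalized reads, which are reads per gene divided by a size factor per library. The size factors were set separately at each time point, so a level at 4 weeks was not compared with one at 12 weeks.

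Class II molecules present peptides from endosomes to CD4+ T cells, and are carried by macrophages, dendritic cells and B cells. Each molecule joins an alpha and a beta chain: RT1-Ba with RT1-Bb, related to mouse I-A and human HLA-DQ, and RT1-Da with RT1-Db1, related to mouse I-E and human HLA-DR. Cd74 holds the new molecule together and takes it to the endosome, where proteases trim Cd74 to a remnant in the peptide groove. RT1-DM, a dimer of RT1-DMa and RT1-DMb, swaps that remnant for a peptide, and RT1-DO, a dimer of RT1-DOa and RT1-DOb, restrains RT1-DM. Ciita does not bind DNA by itself but is recruited to class II promoters by the RFX, CREB and NF-Y proteins that sit on the X and Y boxes.

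The promoters are shown because Ciita acts on class II genes through the X and Y boxes, and the letters of these boxes were looked for. Windows of 250 bases before the start of the gene were found in RefSeq (GRCr8, a newer assembly than the one used for counting) for 8 of the 10 genes, by symbol. RT1-DMb and Ciita were not matched. The letters GCAAC, from the X box, and GATTGG, from the Y box, were searched on both strands, and these spellings were chosen after the windows had been seen. GCAAC was held by 29.6% of all 27457 promoters and by 6 of the 8, and GATTGG by 13.8% of all promoters and by 7 of the 8. Both together on the gene's own strand, GCAAC first and GATTGG 15 to 40 bases later, were held by 0.20% of all promoters and by 5 of the 8. A match is a description of letters and not evidence of binding. The stretches are printed 5′ to 3′ on the strand of the gene, with GCAAC and GATTGG in capitals.
RT1-Ba: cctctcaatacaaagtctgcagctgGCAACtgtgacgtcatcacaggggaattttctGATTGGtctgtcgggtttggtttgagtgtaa
RT1-Bb: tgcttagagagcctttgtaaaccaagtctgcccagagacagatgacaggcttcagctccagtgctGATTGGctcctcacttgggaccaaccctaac
RT1-Da: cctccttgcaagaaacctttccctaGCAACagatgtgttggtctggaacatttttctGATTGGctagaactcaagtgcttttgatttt
RT1-Db1: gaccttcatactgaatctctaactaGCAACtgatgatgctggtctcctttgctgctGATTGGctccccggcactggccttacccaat
RT1-DMa: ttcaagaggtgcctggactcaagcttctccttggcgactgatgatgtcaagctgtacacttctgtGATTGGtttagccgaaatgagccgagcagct
RT1-DOa: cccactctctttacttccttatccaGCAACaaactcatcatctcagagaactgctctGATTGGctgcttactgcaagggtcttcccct
RT1-DOb: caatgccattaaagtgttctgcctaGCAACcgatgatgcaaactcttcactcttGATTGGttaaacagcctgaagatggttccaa
Cd74: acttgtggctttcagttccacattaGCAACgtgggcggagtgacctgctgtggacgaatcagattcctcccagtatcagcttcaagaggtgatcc

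The 7 promoters of RT1 genes lie on chromosome 20 and that of Cd74 on chromosome 18. The stretches, in the order printed, are chr20:4576956-4577043 (plus strand), chr20:4604150-4604245 (minus), chr20:4515308-4515395 (plus), chr20:4560213-4560299 (minus), chr20:4712370-4712465 (minus), chr20:4758501-4758588 (minus), chr20:4627577-4627661 (minus) and chr18:56527111-56527205 (plus). In RT1-Ba, RT1-Da, RT1-Db1, RT1-DOa and RT1-DOb the gap between GCAAC and GATTGG was 24 to 27 bases, and GATTGG began 44 to 108 bases before the start. RT1-Bb and RT1-DMa held GATTGG at 62 and 65 bases before the start without GCAAC on either strand. Cd74 held GCAAC at 70 bases before the start without GATTGG on either strand.

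Libraries held 4662344 reads (sham replicate 3 at 4 weeks) to 18080503 reads, and replicate libraries differed from each other by more than counting noise in all 32 pairs. Of 12 macrophage markers 11 had a mean of at least 10 normalized reads, including Csf1r at 20785 to 28192 normalized reads at 4 weeks and 25265 to 36140 at 12 weeks, while Marco lay between 0 and 30.2. Itgam, the gene of the sorted antigen, lay at 2270 to 6917 at 4 weeks and at 3700 to 6104 at 12 weeks. Dendritic cell markers were present too, with Flt3 at 324 to 435 and at 454 to 657. Neutrophils also carry CD11b, and their 8 markers summed to 949 to 10354 in OA and 1220 to 3745 in sham at 4 weeks, and to 996 to 2927 and 1115 to 3814 at 12 weeks. The 8 B cell markers summed to 41.4 to 241 normalized reads at 4 weeks, with sham replicate 3 the highest, and to 52.1 to 83.8 at 12 weeks. In such bulk samples more class II RNA per cell and more cells that carry class II cannot be told apart.

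None of the 10 genes passed the test at 4 weeks. All 10 had a positive log2 fold change of OA over sham, as did 57.1% of all genes tested, and the median was 0.059 against 0.028 over all genes. At 12 weeks 8 of the 10 were positive, where 47.5% of all genes were, with a median of 0.16 against -0.011. The test was limma's moderated test on log2 of normalized reads plus 1, and a call needed an adjusted p under 0.05 and a log2 fold change of at least 0.5. By that rule 0% of 14861 genes were called at 4 weeks and 0% of 14666 genes at 12 weeks. Without adjustment p was under 0.05 for 7.92% and 12.4% of genes, and for 0 and 1 of the 10. By DESeq2 on the recovered reads, 0.0912% of genes were called at 4 weeks and 0.345% at 12 weeks, with 0 and 1 of the 10. The 1 gene is RT1-DMb in both cases. The 10 genes together took 0.732% ± 0.026 of reads in OA and 0.732% ± 0.091 in sham at 4 weeks (SD, n = 5 each), and 0.823% ± 0.047 in OA and 0.736% ± 0.081 in sham at 12 weeks (SD, n = 4 each).

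**Figure D1:**
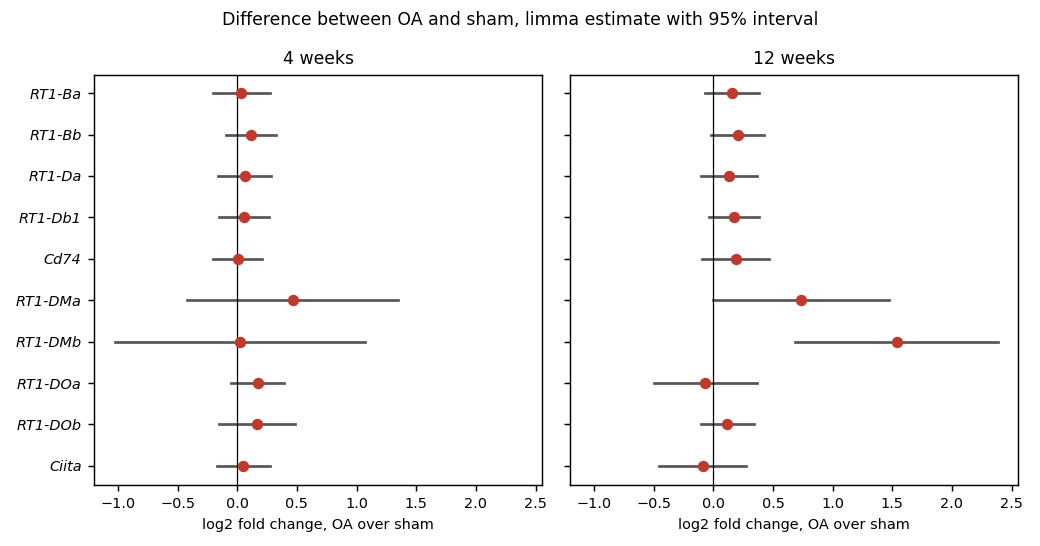
Log2 fold change of OA over sham for each gene (x axis), as limma estimates (points) with 95% intervals (lines), at 4 weeks (5 against 5 libraries) and 12 weeks (4 against 4). Of the 20 intervals, only that of RT1-DMb at 12 weeks, 0.68 to 2.39, lies away from 0.

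At 4 weeks the OA and sham libraries overlapped for all 4 classical chains, and the differences were smaller than the spread between libraries. RT1-Da read 17248, 17782, 19254, 17437 and 16823 in OA and 17004, 15577, 20958, 16525 and 15317 in sham. RT1-Db1, its beta chain, read 11229, 10693, 11929, 10457 and 10175 in OA and 10911, 8955, 12218, 10681 and 9772 in sham. The highest library for both chains was sham replicate 3, and the groups overlapped. RT1-Ba read 7649, 9896, 8497, 9703 and 7674 in OA and 8121, 7957, 10208, 8624 and 7492 in sham. RT1-Bb read 8596, 9061, 9620, 7983 and 7580 in OA and 8181, 7276, 9166, 7926 and 7089.6 in sham. Here too sham replicate 3 was the highest sham library. Over the 4 chains the log2 fold change lay between 0.034 (RT1-Ba, SE 0.11) and 0.11 (RT1-Bb, SE 0.098), and the exact permutation test over libraries, two-sided throughout, gave p between 0.238 and 0.794. The smallest p that 5 against 5 libraries can give is 0.00794.

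At 12 weeks the 4 chains were higher in OA by 0.13 to 0.20 on the log2 scale, or 1.10-fold to 1.15-fold, and the groups still overlapped. RT1-Ba read 11664, 13202, 11445 and 11623 in OA against 9796, 11398, 9516 and 12521 in sham. RT1-Bb read 11109, 11866, 10888 and 11691 in OA against 9144, 10453, 8607 and 11599 in sham. RT1-Db1 read 14521, 15624, 13890.4 and 15125 in OA against 13143, 13398, 11442 and 14711 in sham. For these chains every OA library lay above sham replicates 1 to 3, and sham replicate 4 lay among the OA libraries. RT1-Da read 22327, 22974, 20681 and 23978 in OA against 19864, 21522, 17832 and 23189 in sham, with sham replicates 2 and 4 within the OA range. The exact permutation test gave p = 0.0857 for RT1-Db1, 0.114 for RT1-Bb, 0.20 for RT1-Ba and 0.229 for RT1-Da, where the smallest possible p is 0.0286. Limma's adjusted p lay between 0.430 and 0.611. Over the chains the 95% intervals reached from -0.10 to 0.43 on the log2 scale.

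Cd74, the invariant chain, had nearly equal means at 4 weeks and overlapped between groups at 12 weeks. At 4 weeks it read 37685, 38311, 38722, 36957 and 38775 in OA and 38820, 36433, 42056, 37904 and 35367 in sham, a log2 difference of 0.0014 (SE 0.093). The spread was narrow, with a coefficient of variation of 2.02% in OA and 6.75% in sham. At 12 weeks it read 47199, 52140, 47848 and 55055 in OA and 43635, 42303, 40019 and 52379 in sham, a log2 difference of 0.19 (SE 0.13, exact permutation p = 0.143). As for the chains, OA lay above sham replicates 1 to 3, and sham replicate 4 lay among the OA libraries. Without sham replicate 4, the differences of Cd74, RT1-Bb, RT1-Ba, RT1-Db1 and RT1-Da were 0.27, 0.28, 0.23, 0.23 and 0.19, with limma's adjusted p between 0.301 and 0.460. These were the highest values with each library left out in turn. The lowest were 0.14, 0.14, 0.098, 0.11 and 0.064 in the same order.

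The ratios between the classical chains differed little between groups. The log2 ratio of RT1-Da to RT1-Db1 was 0.70 ± 0.050 in OA and 0.70 ± 0.082 in sham at 4 weeks (SD, n = 5 each), and 0.60 ± 0.049 and 0.64 ± 0.037 at 12 weeks (SD, n = 4 each). The log2 ratio of RT1-Ba to RT1-Bb was 0.016 ± 0.20 in OA and 0.095 ± 0.065 in sham at 4 weeks, and 0.072 ± 0.066 and 0.12 ± 0.020 at 12 weeks. Cd74 stood to the mean of the 4 chains at 1.80 ± 0.094 in OA and 1.87 ± 0.070 in sham at 4 weeks, and at 1.79 ± 0.070 and 1.77 ± 0.090 at 12 weeks. These ratios hold gene length in both terms, so they compare groups and not the amounts of the chains. Of the 10 ratios tested, 5 at each time point, 0 passed after Benjamini-Hochberg adjustment, and the lowest adjusted value was 0.278.

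**Figure D2:**
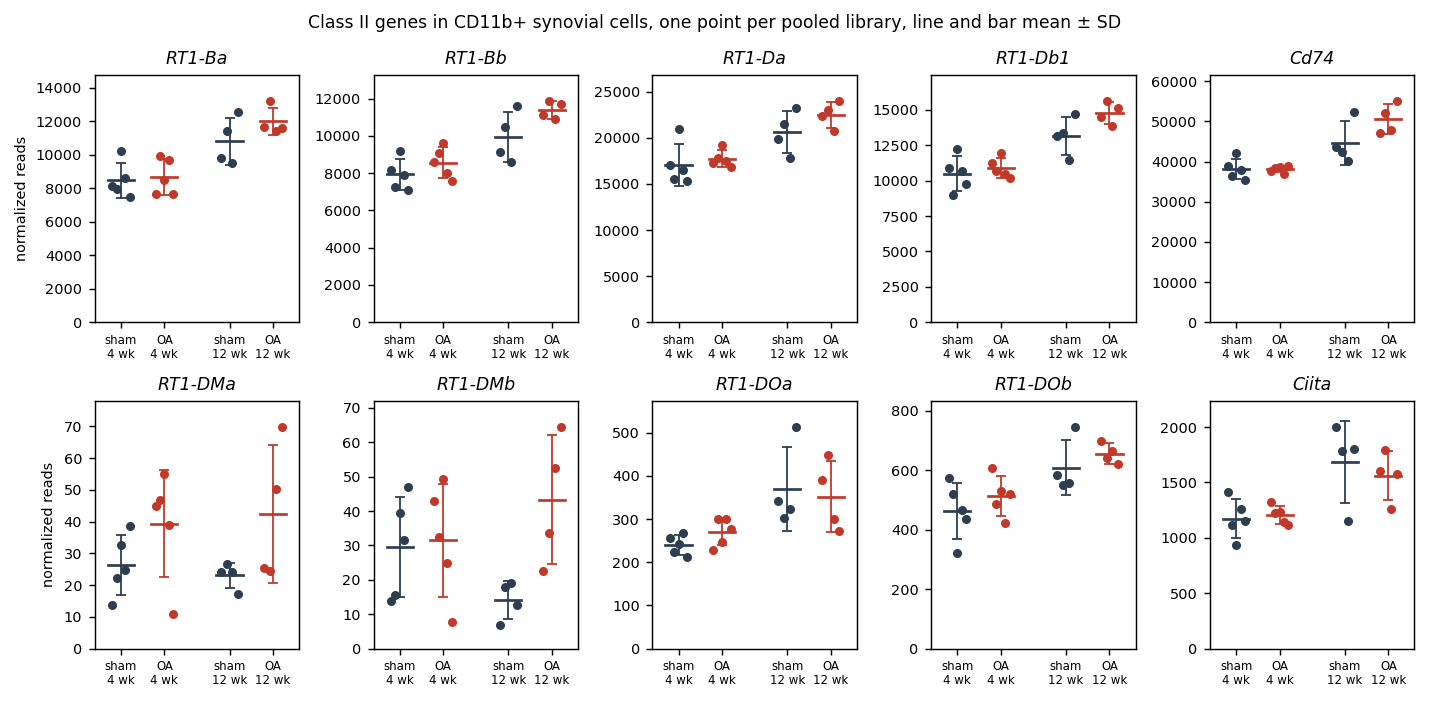
Normalized reads (y axis, starting at 0) of each gene in every pooled library of the 4 groups (x axis), with the mean and SD as line and bar. The classical chains and Cd74 overlap between OA and sham at both times, and RT1-DMb at 12 weeks is the panel in which all 4 OA libraries (22.7 to 64.3) lie above all 4 sham libraries (6.80 to 19.1).

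RT1-DMb had the largest log2 fold change of the 10 genes at 12 weeks, on few reads. It (ENSRNOG00000049491) read 22.7, 33.7, 52.6 and 64.3 in OA and 6.80, 18, 19.1 and 12.6 in sham, from 26, 33, 49 and 60 reads and from 9, 21, 15 and 11 reads. The lowest OA library exceeded the highest sham library, as for 2.85% of all genes in that direction and 6.29% in either. The log2 fold change was 1.54 (SE 0.38, 95% interval 0.68 to 2.39), or 2.90-fold. The exact permutation test gave 0.0286, the smallest p that 4 against 4 libraries allow. Limma gave an unadjusted p of 0.00238 and an adjusted p of 0.278, edgeR an adjusted p of 0.265, and DESeq2 an adjusted p of 0.0195 with a log2 fold change of 1.63. The gene thus passed by DESeq2 and did not pass by limma or edgeR. With each library left out in turn DESeq2 called it in 4 of the 7 fits that gave an adjusted p and not without OA replicate 4, sham replicate 1 or sham replicate 4, with adjusted p between 0.00529 and 0.251. Without OA replicate 3 DESeq2 gave no adjusted p. In limma the log2 fold change lay between 1.25 and 1.80 with each library left out, and the adjusted p over all limma and edgeR alternatives between 0.0892 and 0.663.

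RT1-DMa (ENSRNOG00000047854), the partner chain, read 25.3, 24.5, 50.4 and 69.7 in OA at 12 weeks and 24.2, 26.6, 24.2 and 17.2 in sham. OA replicates 3 and 4 were above all sham libraries, and OA replicates 1 and 2 were among them. The log2 fold change was 0.73 (SE 0.33, 95% interval -0.0034 to 1.47), with an exact permutation p of 0.143 and an adjusted p of 0.404 in limma. OA replicates 3 and 4 were thus the highest libraries for both chains. The log2 ratio of RT1-DMa to RT1-DMb was -0.059 ± 0.27 in OA and 0.74 ± 0.64 in sham (SD, n = 4 each), a difference of -0.80 whose exact permutation p was 0.0286 before and 0.278 after adjustment over the 10 ratios. At 4 weeks the same ratio was 0.36 ± 0.24 in OA and -0.080 ± 0.35 in sham (SD, n = 5 each), a difference of 0.44 in the opposite direction (exact permutation p = 0.0556, adjusted 0.278).

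At 4 weeks the groups overlapped for both RT1-DM genes. RT1-DMb read 43.0, 32.4, 49.4, 24.9 and 7.59 in OA and 13.8, 15.5, 39.5, 31.6 and 47.0 in sham, a log2 difference of 0.018 (SE 0.48, exact permutation p = 0.984). RT1-DMa read 45.1, 46.7, 54.9, 39.0 and 10.8 in OA and 13.8, 22.3, 32.5, 24.6 and 38.7 in sham, a log2 difference of 0.46 (SE 0.41, exact permutation p = 0.365). Both had their lowest value in OA replicate 5, and for RT1-DMa the overlap rests on that library. The other 4 OA libraries, 39.0 to 54.9, lay above the highest sham library, 38.7, by a narrow margin. The nearest were OA replicate 4 on 47 reads and sham replicate 5 on 42 reads. OA replicate 5 was set aside here after its value had been seen, so this is a description only. How many of all genes would be without overlap once OA replicate 5 is left out was not counted. Without OA replicate 5 the log2 difference of RT1-DMa was 0.86 (SE 0.27), with an unadjusted p of 0.00879 and an adjusted p of 0.469 in limma, and an adjusted p of 0.217 by DESeq2. In that limma fit 1184 of 14939 genes had an unadjusted p under 0.05. With each library left out in turn the log2 difference of RT1-DMa ran from 0.26 to 0.86 at 4 weeks and from 0.45 to 0.94 at 12 weeks. The 2 genes rested on 7 to 80 reads per library, and their coefficient of variation within a group was 17.6% to 52.0%, whereas the other 8 genes had 104 reads or more in every library.

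The RT1-DO genes, which restrain RT1-DM, did not pass at either time. RT1-DOa read 229, 300.1, 247, 299 and 278 in OA and 256, 223, 241, 267 and 213 in sham at 4 weeks, a log2 difference of 0.17 (SE 0.10, adjusted p = 0.676 in limma). At 12 weeks it read 390.1, 448, 299 and 271 in OA and 342, 302, 323 and 513 in sham, a log2 difference of -0.067 (SE 0.19). The groups overlapped at both times, and sham replicate 4 was the highest library at 12 weeks. RT1-DOb read 609, 486, 532, 423 and 521 in OA and 573, 519.6, 320.3, 466 and 435 in sham at 4 weeks (log2 difference 0.17, SE 0.15). At 12 weeks it read 699.9, 642, 664 and 619.9 in OA and 585, 549, 558 and 745 in sham (log2 difference 0.12, SE 0.099). Here too OA lay above sham replicates 1 to 3 and below sham replicate 4.

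Ciita, the transactivator, differed by less than its spread. It read 1327, 1224, 1231, 1141 and 1114 in OA and 1411, 1115, 935, 1256 and 1153 in sham at 4 weeks, a log2 difference of 0.051 (SE 0.10, adjusted p = 0.896 in limma). At 12 weeks it read 1607, 1795, 1263 and 1578 in OA and 1998, 1783, 1152 and 1802 in sham, a log2 difference of -0.091 (SE 0.17, adjusted p = 0.835). Its lowest library was sham replicate 3 at both times, and the replicate number ties no rats together across times. Of the proteins that bring Ciita to the promoter, 6 of 7 genes were tested and 0 passed. Rfx5 was at 709 ± 61.5 in OA and 814 ± 43.0 in sham at 12 weeks (SD, n = 4 each), with an adjusted p of 0.358 in limma, and 5 of the 6 had a negative log2 fold change there (median -0.088). At 4 weeks 5 of the 6 were positive (median 0.042). Rfxap was listed at 0 to 1.94 normalized reads, below the level of 3 reads.

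The change from 4 to 12 weeks in the difference between OA and sham was not shown for any of the 10 genes. The interaction was fitted in limma over all 18 libraries on log2 CPM (recovered reads scaled to TMM library sizes), where 0% of 14420 genes were called and 3% had an unadjusted p under 0.05. RT1-DMb had the widest change, 1.47 (SE 0.66, 95% interval 0.086 to 2.86), with an unadjusted p of 0.0387 and an adjusted p of 0.962. For the 4 classical chains the change was 0.11 to 0.16, for Cd74 0.22, for RT1-DMa 0.29, for RT1-DOb -0.015, for Ciita -0.11 and for RT1-DOa -0.20, each with an interval that includes 0.

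Across libraries, with group means removed, the classical chains and Cd74 moved together. Over their 10 pairs Pearson's r was 0.45 to 0.89 at 4 weeks (n = 10 libraries) and 0.69 to 0.95 at 12 weeks (n = 8 libraries). These correlations are descriptions, since all genes of a library share its depth, size factor and cell mix. Without sham replicate 3 they were 0.072 to 0.91 at 4 weeks and 0.57 to 0.92 at 12 weeks, so the lower end at 4 weeks rested in part on that library. RT1-Da and RT1-Db1 gave r = 0.88 (Spearman's rho 0.85) at 4 weeks and 0.95 (rho 0.90) at 12 weeks. With the 2 libraries farthest out in RT1-Da left aside, r was 0.84 and 0.81.

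The RT1-DM genes moved with each other more closely than with the classical chains. RT1-DMa and RT1-DMb gave r = 0.95 (rho 0.94) at 4 weeks and 0.67 (rho 0.60) at 12 weeks, and 0.87 and 0.59 without the 2 libraries farthest out in RT1-DMa. Against the 4 chains and Cd74 the RT1-DM genes gave r of -0.14 to 0.50 at 4 weeks and -0.45 to 0.060 at 12 weeks. RT1-DMa and RT1-DOa ran in opposite directions at 12 weeks (r = -0.88, rho -0.88), and less so at 4 weeks (r = -0.33, rho -0.36). The value at 12 weeks was the lowest r of all pairs at either time, and the pair was picked for that. There RT1-DMb gave -0.53 with RT1-DOa and -0.35 with RT1-DOb, and RT1-DMa gave -0.51 with RT1-DOb. Ciita followed RT1-DOb at 4 weeks (r = 0.83, rho 0.76), with 0.45 once the 2 libraries farthest out in RT1-DOb were left aside and 0.62 without sham replicate 3. At 12 weeks that pair gave r = 0.22. Ciita against the 4 chains and Cd74 gave -0.44 to -0.039 at 4 weeks and 0.51 to 0.83 at 12 weeks. Without sham replicate 3 these became 0.024 to 0.83 and 0.038 to 0.49, so the sign at 4 weeks turned on 1 library of 4662344 reads.

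**Figure D3:**
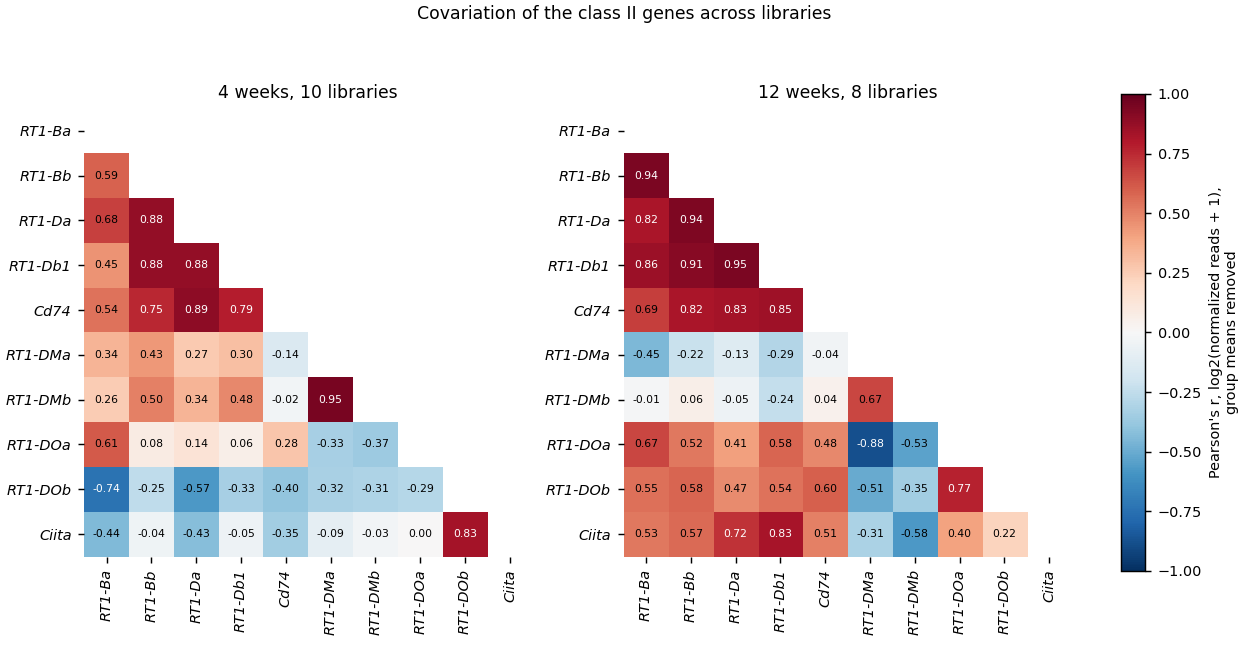
Pearson's r (colour and number) between each pair of genes over the 10 libraries of 4 weeks and the 8 libraries of 12 weeks, on log2 normalized reads plus 1 with the mean of each group removed. A block of the classical chains and Cd74, 0.45 to 0.89 and 0.69 to 0.95, stands beside a separate RT1-DMa and RT1-DMb pair at 0.95 and 0.67.

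The genes whose level was most like that of the classical chains and Cd74 were Tmem141, Poll, Nrg2, Hspbp1 and Tmem179b, out of 14410 genes with a mean of at least 10 at both times. They were ranked by the lower of their r at the 2 times, which ran from 0.85 for Tmem141 (0.93 at 12 weeks) down to 0.81 for Tmem179b. Tmem141 read 155 to 181 in OA and 135 to 246 in sham at 4 weeks, with a log2 difference of 0.011 and an adjusted p of 0.987 in limma. The largest difference among these 5 at 12 weeks was Nrg2 at -0.20 (SE 0.26), which did not pass.

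The genes most like the mean of RT1-DMa and RT1-DMb were of another kind. This list was drawn up after the RT1-DM values had been seen. The nearest were AABR07027555.1 (r = 0.94 at 4 weeks and 0.94 at 12 weeks), AABR07055492.1 (0.93 and 0.93) and AC136661.1 (0.92 and 0.92), followed by Ppial4d (0.90 and 0.97). Of the 50 nearest genes, 76% carry a clone or locus number in place of a gene name, against 10% of all 14410 genes and 8% of the 50 nearest to the classical chains and Cd74. All 50 had a positive log2 fold change at 12 weeks (median 0.56), and 28 of 50 did at 4 weeks (median 0.065). Of the 50 nearest to the classical chains and Cd74, 39 were positive at 12 weeks (median 0.080) and 34 at 4 weeks (median 0.044), beside 47.5% and 57.1% of all genes. Ppial4d, named as a relative of the cyclophilin gene Ppia, read 159.7, 167.5, 288.5 and 360.3 in OA and 134.5, 167.6, 161.5 and 141.3 in sham at 12 weeks. OA replicates 3 and 4 were its highest libraries, as for RT1-DMa and RT1-DMb. Its log2 difference was 0.61 (SE 0.24, adjusted p = 0.373 in limma). AABR07027555.1 read 35.8, 37.8, 81.5 and 84.7 in OA and 27.2, 47.3, 34.3 and 34.5 in sham. Whether what these genes share has a part in the RT1-DMb difference was not tested.

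**Figure D4:**
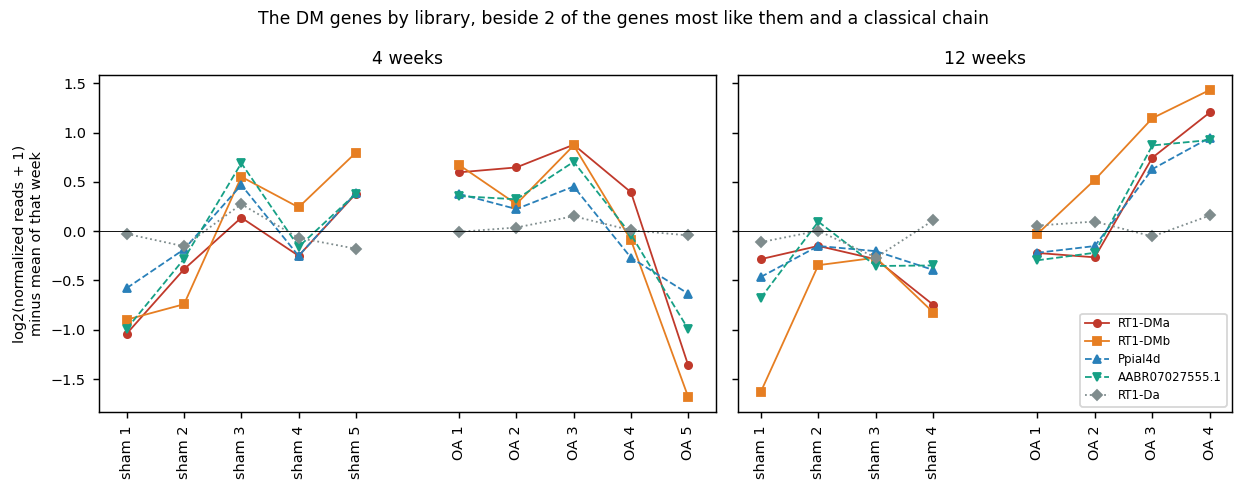
Log2 normalized reads plus 1, minus the mean of that week (y axis), in every library (x axis) for RT1-DMa, RT1-DMb, Ppial4d, AABR07027555.1 and the classical chain RT1-Da. The RT1-DM genes and their nearest genes are low in OA replicate 5 and in sham replicate 1 at 4 weeks. They are high in OA replicates 3 and 4 at 12 weeks, while RT1-Da stays near 0.

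The endosomal enzymes that trim Cd74 and cut antigen had a positive log2 fold change in 6 of 6 genes at both times, with a median of 0.20 at 4 weeks and 0.22 at 12 weeks, and none was called. Of all genes tested, 57.1% were positive at 4 weeks and 47.5% at 12 weeks. Cathepsin S (Ctss), which makes the last cut in Cd74 in many antigen-presenting cells, was at 11422 ± 1366 in OA and 9658 ± 709 in sham at 4 weeks (SD, n = 5 each). At 12 weeks it was at 16425 ± 1988 in OA and 12352 ± 2145 in sham (SD, n = 4 each), a log2 difference of 0.42 (SE 0.13, adjusted p = 0.315 in limma). Cathepsin L (Ctsl) did not overlap between groups at either time, at 8055 to 9158 in OA and 7191 to 7720 in sham at 4 weeks and at 9784 to 10772 and 8462 to 9766 at 12 weeks. Its log2 difference was 0.21 (SE 0.072) and 0.22 (SE 0.074), with an adjusted p of 0.567 and 0.330 in limma. Legumain (Lgmn) differed by 0.31 at 4 weeks (SE 0.10, adjusted p = 0.563), and the reductase Ifi30 by 0.047 and 0.038. Over all genes, 1.18% at 4 weeks and 2.85% at 12 weeks were higher in OA without overlap.

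Of 8 listed genes that set how much class II stays at the surface, or act beside it, 6 were found by symbol. None of these 6 passed the test. They were the ubiquitin ligases Marchf1 and Marchf8, Cd83, which opposes them, and the co-stimulatory receptors Cd40, Cd80 and Cd86. At 4 weeks 5 of 6 were positive (median 0.16), beside 57.1% of all genes. At 12 weeks 6 of 6 were (median 0.13), beside 47.5%, and none was called at either time. Cd83 was at 4463 ± 543 in OA and 3880 ± 838 in sham at 4 weeks (SD, n = 5 each), and at 8147 ± 1141 and 7212 ± 992 at 12 weeks (SD, n = 4 each). Interferon gamma is the main inducer of Ciita. Ifng itself was listed at 0 to 9.28 normalized reads at 4 weeks and 0 to 2.54 at 12 weeks, and of the other 7 genes of its pathway none was called. Irf1 was at 6638 ± 1235 in OA and 8595 ± 1738 in sham at 12 weeks (SD, n = 4 each), a log2 difference of -0.37 (SE 0.17, adjusted p = 0.404), and Ifngr1 differed by 0.24 at 4 weeks (SE 0.095, adjusted p = 0.595).

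Genes of the MHC class I pathway gave a median log2 fold change of -0.013 at 4 weeks and 0.027 at 12 weeks over 10 genes, with none called. No heavy chain of class I was on this list. B2m, the light chain of class I, was at 21329 ± 1487 in OA and 22453 ± 2444 in sham at 4 weeks and 26134 ± 1381 and 25247 ± 1471 at 12 weeks (SD, n = 5 and n = 4 each). At 12 weeks Nlrc5, the class I counterpart of Ciita, was at 587 ± 31.5 in OA and 680.2 ± 52.0 in sham (SD, n = 4 each), and Tap1, a peptide transporter, at 1409 ± 77.0 and 1589 ± 57.5. Neither overlapped between groups, as for 3.44% of all genes lower in OA, and both had an adjusted p of 0.332 in limma. Calr, a chaperone of class I assembly, was higher without overlap, as for 2.85% of all genes. Its log2 difference was 0.24 (SE 0.080, adjusted p = 0.319 in limma). Tap2 was among the genes on few reads, at 13.9 ± 6.53 in OA and 7.58 ± 5.74 in sham (log2 difference 0.95, SE 0.54, adjusted p = 0.486).

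**Figure D5:**
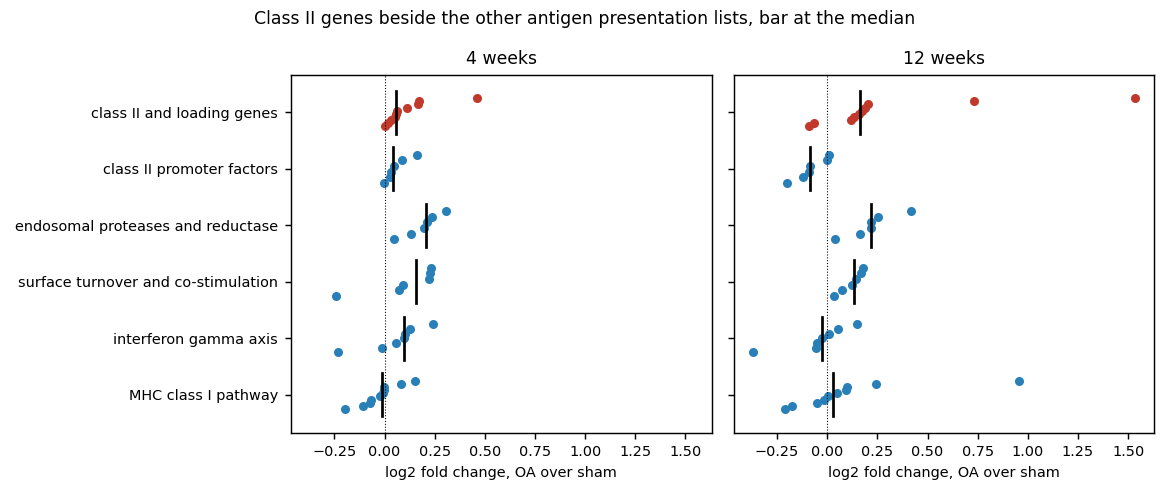
Log2 fold change of OA over sham (x axis) for each gene of the class II list and of 5 other lists of the antigen presentation pathway (y axis), with a bar at the median of each list. The 6 endosomal enzymes lie to the right of 0 at both times, and RT1-DMb, at 1.54, is the point farthest out at 12 weeks.

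The part of other cells in the class II values was not tested. Of their markers limma called none at either time, as for 0% of all genes. DESeq2 called 2 of the 6 skeletal muscle markers at 12 weeks, where it called 0.345% of all genes. The 7 fibroblast markers had a positive log2 fold change in 6 of 7 genes at both times, with a median of 0.42 at 4 weeks and 0.57 at 12 weeks. They summed to 69629 to 109652 normalized reads in OA and 46196 to 110066 in sham at 4 weeks, and to 81834 to 107313 and 54987 to 86349 at 12 weeks. The 6 endothelial markers were negative in 5 of 6 genes at both times (median -0.10 and -0.25), at sums of 30745 to 37828 in OA and 34210 to 49725 in sham at 12 weeks. The 6 skeletal muscle markers summed to 1049.8 to 1859.6 in OA and 773 to 964 in sham at 12 weeks. There 6 of 6 were positive, beside 47.5% of all genes. Taken singly, 1 of the 6 was higher in OA without overlap, as for 2.85% of all genes. The 8 T and NK cell markers summed to 199 to 238 in OA and 187 to 276 in sham at 12 weeks. At that time macrophage markers were positive in 9 of 11 (median 0.11), at sums of 142689 to 165404 in OA and 116371 to 172662 in sham. Dendritic cell markers were negative in 7 of 10 and positive in 3 of 10 at both times (median -0.092 and -0.11). Clec9a, a marker of cross-presenting dendritic cells, was at 188 to 259 in OA and 268 to 343 in sham at 12 weeks. Its adjusted p in limma was 0.349. Clec9a was the 1 marker of the 10 without overlap there, as for 3.44% of all genes lower in OA. Xcr1, another of the 10, overlapped at 37.5 to 68.4 in OA and 36.8 to 67.0 in sham. B cell markers at 12 weeks summed to 52.1 to 83.8 in OA and 54.0 to 61.1 in sham. RT1-Db2, a further class II beta gene whose sequence is close to RT1-Db1, read 114 to 149 in OA and 98.4 to 197 in sham at 4 weeks and 123 to 203 and 91.6 to 172 at 12 weeks. How reads that match both genes were counted is not given in the sources used here, so the split between them is uncertain. RT1-DMa and RT1-DMb rest on few reads and may be affected too, which was not tested.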

How the data were processed

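The authors checked reads with fastp 0.20.0, aligned them to Rnor_6.0 (Ensembl annotation) with STAR 2.7.6a, removed duplicates with Sambamba, counted them per gene with featureCounts 2.0.0 and divided the counts by DESeq2 1.24.0 size factors within each time point. The deposited values are these size-factor-normalized reads, a non-negative signal. The deposited log2 fold changes with standard errors, the score (Wald statistic) and the p-value columns hold the authors' own comparison and were not used. Strand setting and treatment of multi-mapped reads are not given in the sources used here.

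In each library all values came out as whole reads (tolerance 0.01) once divided by the lowest value, so reads were recovered. limma 3.58.1 (R 4.3.3, with trend) compared OA with sham on log2 of normalized reads plus 1, for genes with a mean of at least 10. p-values were adjusted by Benjamini-Hochberg over all genes tested. Single genes and ratios were tested by exact permutation over libraries. The interaction used log2 CPM (TMM, prior count 2). edgeR 4.0.16 and DESeq2 1.42.0 used recovered reads. The steps were tested on simulated data. Alternatives were a pseudocount of 0.5 or 5, no filter, a mean of at least 50, TMM, edgeR, DESeq2, a replicate block, no fold minimum and leaving out each library. DESeq2 with each library left out was added after the data were seen. The genes named are the 10 class II genes, genes of lists chosen by function, the 5 genes most like the classical chains and Cd74 and, chosen after their values were seen, the 4 most like RT1-DMa and RT1-DMb. Members and lists were chosen with earlier results of these data known. Python 3.11.15, scipy 1.17.1 and matplotlib 3.10.9 were used.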

Additional observations from a re-analysis of the deposited data

Results flagged for a closer look

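Of 40 groups of 4 or 5 libraries tested for a library far from the rest (10 genes, 4 groups each), 2 were picked out, and chance picks out about 1 in 20. RT1-Ba in OA replicate 2 at 12 weeks read 13202 normalized reads, where the other 3 OA libraries lay at 11445 to 11664. RT1-DMa in OA replicate 5 at 4 weeks read 10.8, where the other 4 lay at 39.0 to 54.9, and it rested on 10 reads.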

How the results depend on the processing

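By DESeq2 27 genes were called at 4 weeks and 98 at 12 weeks, 1 of them a class II gene (RT1-DMb, log2 fold change 1.63) at 12 weeks, where limma called 0; edgeR called 0 at both times. With a replicate block limma called 1 gene at 4 weeks, and the block changed no call among the class II genes (RT1-DMb at 12 weeks, adjusted p = 0.0892). The labels name no pairing of same-numbered OA and sham libraries. Their deviations correlated at -0.13 to 0.080 at 4 weeks (0 of 5 best with their own number) and -0.026 to 0.30 at 12 weeks (1 of 4). So few libraries cannot decide whether same-numbered ones were handled together. With the block, 1036 genes at 4 weeks and 2185 at 12 weeks had an unadjusted p under 0.05 in limma, against 1177 and 1814 without it. With each library left out, limma called 0 to 1 genes at 4 weeks and 0 to 81 at 12 weeks (81 without sham replicate 3), and DESeq2 7 to 78 (without OA replicate 4 and sham replicate 5) and 26 to 233 (without OA replicate 4 and sham replicate 3), with 0 to 1 class II genes at 12 weeks. The cause of these shifts was not tested.

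At 4 weeks TMM scaling turned RT1-DMb to -0.00025, and Cd74 was -0.024 by TMM, -0.028 by edgeR and -0.00069 by DESeq2. Leaving out each library turned the sign of differences near 0. At 4 weeks limma ranges were -0.025 to 0.037 for Cd74, -0.20 to 0.44 for RT1-DMb, -0.016 to 0.10 for RT1-Ba and -0.028 to 0.12 for Ciita, and DESeq2 ranges were -0.025 to 0.037, -0.097 to 0.38, -0.013 to 0.11 and -0.030 to 0.11 in the same order. At 12 weeks RT1-DOa ran from -0.19 to 0.10 in limma and -0.21 to 0.13 in DESeq2, and Ciita from -0.26 to 0.0071 in limma. The difference between weeks ran from -0.095 to 0.50 for RT1-DMa and -0.089 to 0.10 for RT1-DOb. Of the ratios, RT1-DOa to RT1-DOb at 4 weeks ran from -0.10 to 0.13, RT1-Da to RT1-Db1 at 4 weeks from -0.015 to 0.027, and Cd74 to the chains at 12 weeks from -0.024 to 0.044. None of these passed a test. A mean of at least 50 left out RT1-DMa and RT1-DMb, which rest on 7 to 80 reads per library.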
